A study of Mus musculus with 2 samples.

Results

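The enzymes that make serine and that move its carbon through folate were examined in whole mouse liver, at day 3 and at day 0 after partial hepatectomy. The group held 9 genes, Phgdh, Psat1, Psph, Shmt1, Shmt2, Mthfd1, Mthfd1l, Mthfd2 and Mtr, which were chosen by their place in the pathway and with the signals of these same arrays already known. They were measured by 23 probe sets that carry the symbol of a single one of these genes, of 34945 such probe sets for 18193 genes in all. The day 3 group was liver of BALB/c nude mice collected 3 days after an operation that removed 70% of the organ, labelled as active regeneration. The day 0 group was liver of the same strain collected at day 0, labelled as control, and the labels do not say whether it was unoperated or just operated on. Nude mice lack a thymus and have few mature T cells, which both groups share, and the labels do not say whether an array held 1 animal or a pool. There was 1 array per day, so every difference below lacks a replicate check and no test was made. Day, surgery and animal cannot be told apart.

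The 3 enzymes of serine synthesis and 1 mitochondrial folate enzyme, Mthfd1l, were at least 2-fold higher at day 3. Psat1 was at least 6.26-fold higher, Psph 5.97-fold, Mthfd1l 3.93-fold and Phgdh at least 3.09-fold, each on the probe set that stood for the gene. The 4 Phgdh probe sets ran from 1.53-fold to at least 3.09-fold, and the other Psat1 probe set was at least 3.63-fold higher. Mthfd2 was 1.84-fold higher and Mtr 1.39-fold. In the signals as deposited, the cytosolic enzymes Shmt1 and Mthfd1 were lower at day 3 on each of their 7 probe sets. Of the 4 Shmt1 probe sets 3 were at least 2-fold lower. Both counts depend on how the arrays are scaled to each other. Shmt2, the mitochondrial counterpart of Shmt1, was within 2-fold on each of its 4 probe sets.

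Serine is built from a glycolytic intermediate in a chain of 3 enzymes. Phgdh oxidises phosphoglycerate, Psat1 adds the amino group and Psph removes the phosphate. A serine hydroxymethyltransferase, Shmt1 in the cytosol or Shmt2 in mitochondria, then splits serine into glycine and a carbon unit carried on tetrahydrofolate. In mitochondria Mthfd2 oxidises that unit and Mthfd1l releases it as formate, which Mthfd1 in the cytosol reattaches to folate for purine and thymidylate synthesis. Mtr passes a methyl group from folate to homocysteine and so regenerates methionine. Adult liver is known for high activity of the cytosolic folate enzymes and for breakdown of serine, whereas Mthfd2 is best known from embryonic and dividing cells.

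Each array carried 45101 probe sets with MAS5 signals, a linear intensity in which mismatch probes are subtracted from perfect match probes. A common floor of 68.3, the higher array median, replaced any signal below it. Where a gene had several probe sets, the one with the highest mean log2 signal over both arrays stood for it and is called the main probe set here. A fold against a signal under the floor is a lower bound and is written as at least that many fold. The number of arrays limits the precision. Probe sets of the same gene differed in log2 ratio with an SD of 0.44 (per probe set, from the brightest pair in each of 4380 genes), which covers probe sets on these arrays and not animals. Over 12634 genes with a signal above the floor on at least 1 array, the median log2 ratio was 0.08. Scaling to the hybridisation spikes, bacterial and phage transcripts added after labelling, moved that median to 0.36. Among genes past 2-fold 69.6% were higher at day 3, against 58.4% after quantile normalisation and 86.3% after spike scaling.

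The start sites of these genes can be compared by sequence, since their transcripts differed in opposite ways between the days. RefSeq promoter windows of GRCm38.p6, from 250 bases before to 50 bases after a start site, matched all 9 genes by symbol in 10 windows, Psat1 having 2. The windows of the 4 genes that were at least 2-fold higher at day 3 are shown, with those of Mthfd2 and of Shmt1, the gene with the lowest ratios. They run 5′ to 3′ on the gene's strand, and capitals mark CCAAT or its reverse complement ATTGG, the letters bound by the NF-Y complex in many promoters.
Phgdh (chr3:98339920-98340219, minus strand): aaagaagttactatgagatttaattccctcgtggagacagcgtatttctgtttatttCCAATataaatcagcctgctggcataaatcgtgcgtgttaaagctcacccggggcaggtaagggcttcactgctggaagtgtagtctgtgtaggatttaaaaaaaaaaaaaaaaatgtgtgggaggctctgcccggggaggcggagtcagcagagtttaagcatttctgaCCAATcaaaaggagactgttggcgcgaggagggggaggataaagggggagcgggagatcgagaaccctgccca
Psat1 (chr19:15925010-15925309, minus strand): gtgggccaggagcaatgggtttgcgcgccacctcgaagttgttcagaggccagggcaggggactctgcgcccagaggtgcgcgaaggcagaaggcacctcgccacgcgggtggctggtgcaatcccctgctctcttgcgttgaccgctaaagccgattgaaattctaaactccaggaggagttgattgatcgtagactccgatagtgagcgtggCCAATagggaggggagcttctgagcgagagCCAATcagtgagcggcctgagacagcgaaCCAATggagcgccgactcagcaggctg
Psat1 (chr19:15924573-15924872, minus strand): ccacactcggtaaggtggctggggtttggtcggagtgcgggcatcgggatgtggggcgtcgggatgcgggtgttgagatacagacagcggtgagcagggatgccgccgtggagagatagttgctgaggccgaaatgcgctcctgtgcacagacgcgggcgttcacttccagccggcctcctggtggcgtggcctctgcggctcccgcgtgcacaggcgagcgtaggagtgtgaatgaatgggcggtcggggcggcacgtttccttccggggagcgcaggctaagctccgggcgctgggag
Psph (chr5:129787204-129787503, minus strand): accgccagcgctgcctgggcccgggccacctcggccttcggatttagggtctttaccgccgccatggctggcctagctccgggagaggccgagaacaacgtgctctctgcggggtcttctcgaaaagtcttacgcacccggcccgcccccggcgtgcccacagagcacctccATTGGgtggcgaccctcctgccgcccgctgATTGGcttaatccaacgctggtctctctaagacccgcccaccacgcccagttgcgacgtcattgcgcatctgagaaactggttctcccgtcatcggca
Mthfd1l (chr10:3972825-3973124, plus strand): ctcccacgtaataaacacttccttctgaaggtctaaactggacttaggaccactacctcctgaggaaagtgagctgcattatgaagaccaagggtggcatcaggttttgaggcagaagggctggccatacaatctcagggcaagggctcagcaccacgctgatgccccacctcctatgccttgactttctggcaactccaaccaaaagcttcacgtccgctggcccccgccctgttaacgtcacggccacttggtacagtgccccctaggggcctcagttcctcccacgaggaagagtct
Mthfd2 (chr6:83317555-83317854, minus strand): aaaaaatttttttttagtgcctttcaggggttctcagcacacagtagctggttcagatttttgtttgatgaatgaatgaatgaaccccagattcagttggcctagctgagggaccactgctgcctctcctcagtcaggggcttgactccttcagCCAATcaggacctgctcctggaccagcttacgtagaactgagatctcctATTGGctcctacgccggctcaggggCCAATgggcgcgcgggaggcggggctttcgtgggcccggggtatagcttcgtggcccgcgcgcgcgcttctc
Shmt1 (chr11:60811216-60811515, minus strand): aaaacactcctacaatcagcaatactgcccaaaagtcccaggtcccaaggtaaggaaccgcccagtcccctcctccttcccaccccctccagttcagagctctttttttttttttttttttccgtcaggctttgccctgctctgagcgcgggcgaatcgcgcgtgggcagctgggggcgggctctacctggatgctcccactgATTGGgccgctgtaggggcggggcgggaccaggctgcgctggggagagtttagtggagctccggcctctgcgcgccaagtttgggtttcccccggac
These letters occurred in 7 of the 10 windows, and in 37.4% of all 32851 windows of that length. Of the 7 windows shown, the first of Psat1 and that of Mthfd2 held 3 matches each, those of Phgdh and Psph 2 each and that of Shmt1 had 1, so the letters stood in windows of genes with higher and with lower signals. Of the windows not shown, that of Mtr held 2 matches and that of Mthfd1 had 1. The second Psat1 window and those of Mthfd1l and Shmt2 had no match. The 10 windows were richer in G and C than all windows, with a median of 59.7% against 52.7%, and held a median of 16.5 CpG dinucleotides against 7. The part of that composition in the shares of motifs was not tested. The GC box GGGCGG was found in 6 of the 10 windows, against 35.7% of all windows, and Shmt1 held 4 matches, of which 2 overlapped each other. The letters of the antioxidant response element, TGACNNNGC, were found in the windows of Phgdh and Psph, and in 12.4% of all windows. TATAAA occurred in the Phgdh window, overlapping a CCAAT match by its first base, and in 13.6% of all windows. The C/EBP-ATF response element TGATGNAA, the E-box CACGTG and the E2F letters TTTNGCGC were in none of the 10 windows, and in 3.97%, 7.15% and 1.38% of all windows. Both strands were searched for each of the 7 motifs. A match describes the letters of a window and does not show that a factor binds there, and an absent match says nothing about sites outside it.

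**Figure D1:**
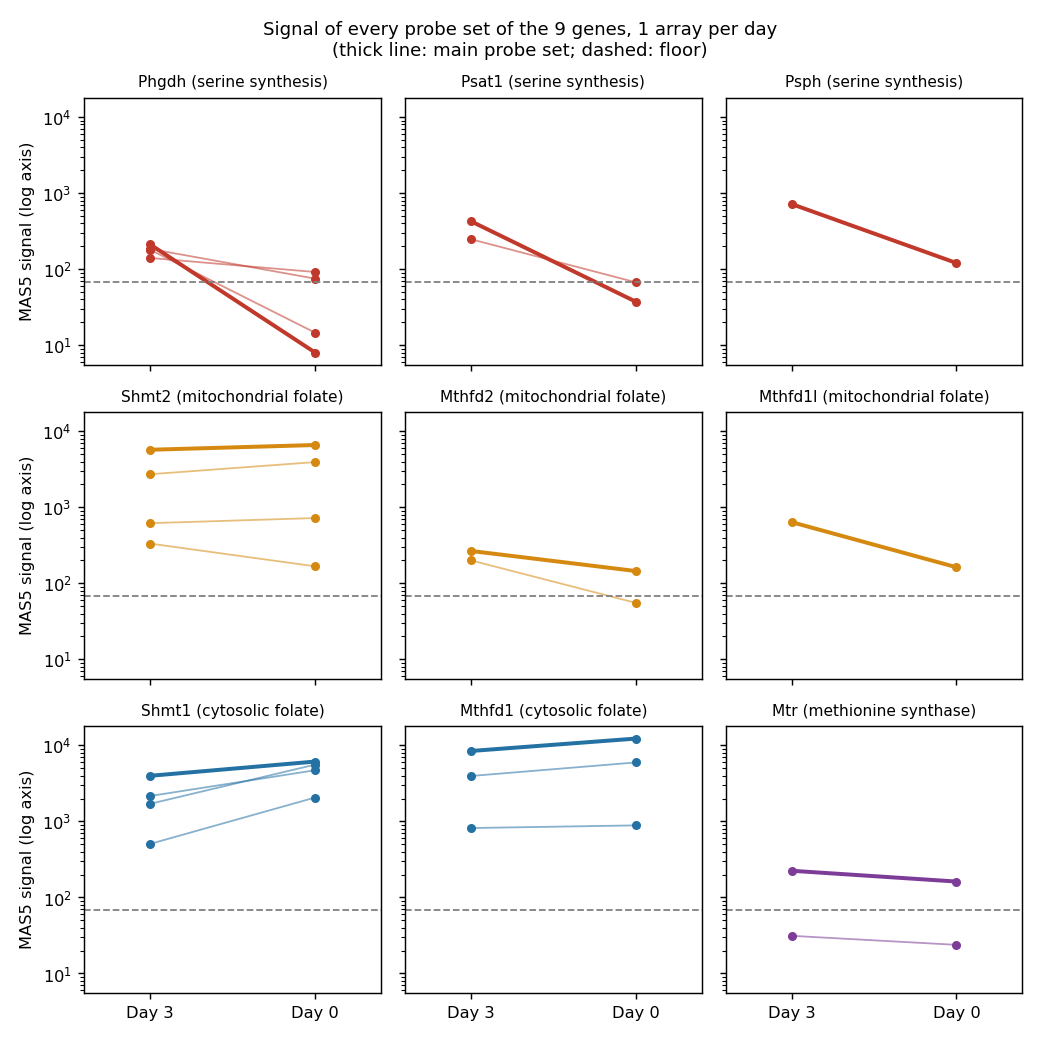
MAS5 signal (log axis) of every probe set of the 9 genes at day 3 and day 0, 1 line per probe set, with the main probe set as a thick line and the floor of 68.3 as a dashed line. The lines of Phgdh, Psat1, Psph, Mthfd2, Mthfd1l and Mtr lie higher at day 3, and those of Shmt1 and Mthfd1 lie lower.

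Psph, the phosphatase that completes serine synthesis, was measured by 1 probe set (1415673_at). Its signal was 719 at day 3 and 120.5 at day 0, both above the floor, which gave a log2 ratio of 2.58. That difference was 5.97-fold and did not rest on a floored value. Psat1, the aminotransferase, had 2 probe sets, and both lay under the floor at day 0. The main one (1451064_a_at) had a signal of 427 at day 3 and 37.4 at day 0, at least 6.26-fold higher. The other (1454607_s_at) had 248 at day 3 and 67.2 at day 0, at least 3.63-fold higher. Both Psat1 probe sets thus lay above the floor at day 3 only.

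Phgdh, the dehydrogenase that opens the chain, had 4 probe sets, all of the kind whose probes may also match other transcripts. At day 3 their signals were 211, 184.5, 179.9 and 140.4, all above the floor. At day 0 they were 8.02, 75.1, 14.6 and 91.8 in the same order, and 2 of the 4 were under the floor. All 4 were higher at day 3, by at least 3.09-fold, by 2.46-fold, by at least 2.64-fold and by 1.53-fold. A further 2 probe sets that the annotation assigns to Phgdh together with a predicted gene were not counted among the members. One of these had signals of 121.6 at day 3 and 43.9 at day 0, and the other 34.2 at day 3 and 1.37 at day 0.

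Of the mitochondrial folate enzymes, Mthfd1l, the formate-producing synthetase, differed most. Its only probe set (1456653_a_at) had a signal of 638 at day 3 and 163 at day 0, a 3.93-fold difference with both values above the floor. Mthfd2, the dehydrogenase and cyclohydrolase, had 266 at day 3 and 145 at day 0 on its main probe set (1419253_at), or 1.84-fold higher. On its other probe set (1419254_at) it had 200.4 at day 3 and 55.3 at day 0, at least 2.94-fold higher. The main Mthfd2 probe set therefore missed the 2-fold threshold and the other passed it.

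Shmt2, the mitochondrial hydroxymethyltransferase, had 4 probe sets that did not all go the same way. The main one (1455084_x_at) had a signal of 5709 at day 3 and 6590.2 at day 0, a log2 ratio of −0.21 that was 0.08 after spike scaling and 0.01 as the mean over probe sets. A further pair, at 2721 and 618 at day 3 against 3930.4 and 722 at day 0, had log2 ratios of −0.53 and −0.22. The remaining probe set had 333 at day 3 and 167 at day 0, a log2 ratio of 0.99. No direction can be given for Shmt2 from these values.

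Shmt1, its cytosolic counterpart, was lower at day 3 on all 4 probe sets, by sizes that differed widely. The main probe set (1425179_at) had a signal of 3982 at day 3 and 6127 at day 0, 1.54-fold lower. Its log2 ratio of −0.62 was −0.33 after spike scaling. The probe set 1425178_s_at had 2159.6 at day 3 and 4710.3 at day 0, 2.18-fold lower. The probe set 1425177_at had 1705 at day 3 and 5588 at day 0, 3.28-fold lower. The probe set 1422198_a_at had 507 at day 3 and 2062 at day 0, 4.07-fold lower. The rule of the main probe set thus took the smallest of the 4 differences, and the mean over the 4 gave a log2 ratio of −1.37. All signals were far above the floor on both days.

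Mthfd1, the trifunctional cytosolic enzyme that loads formate onto folate, was lower by less than 2-fold on its 3 probe sets. Its main probe set (1415916_a_at) had a signal of 8439 at day 3 and 12289 at day 0, 1.46-fold lower. That log2 ratio of −0.54 was −0.25 after spike scaling. The others had 3958 and 818 at day 3, against 5967 and 887 at day 0, or 1.51-fold and 1.08-fold lower. Mtr, methionine synthase, had 224 at day 3 and 162 at day 0 on its main probe set, a log2 ratio of 0.47. That difference is close to the SD of 0.44 between probe sets. The other Mtr probe set was under the floor on both arrays, with 31.3 at day 3 and 23.8 at day 0. It was the only one of the 23 not to enter the ratios.

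**Figure D2:**
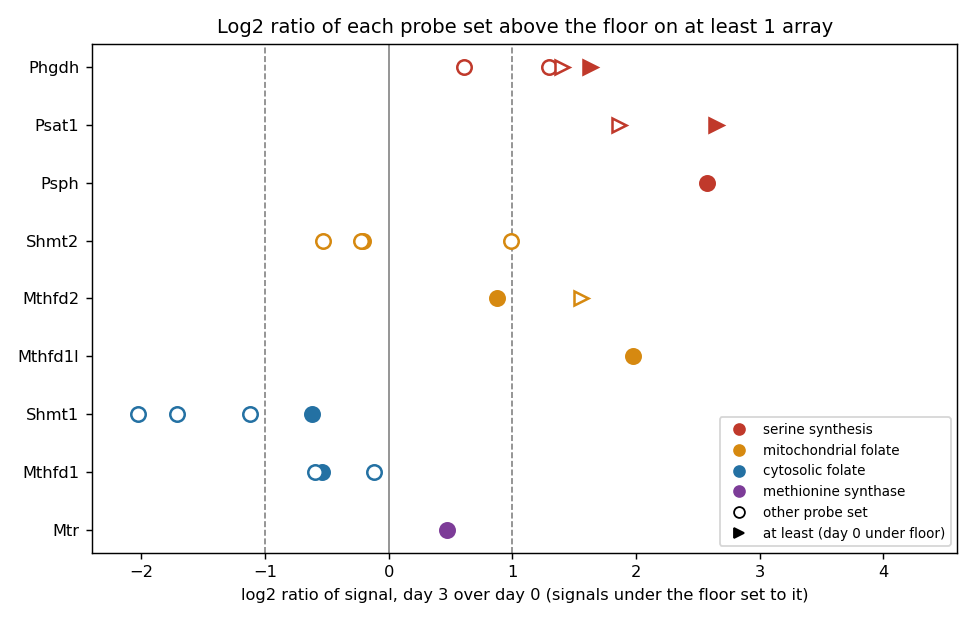
Log2 ratio of signal, day 3 over day 0, for the 22 probe sets above the floor on at least 1 array, with filled symbols for main probe sets, open ones for other probe sets and triangles for lower bounds. Dashed lines mark 2-fold, which 8 probe sets pass as higher and 3, all of Shmt1, as lower.

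By main probe sets, 4 of the 9 genes were at least 2-fold higher at day 3, none was 2-fold lower and 5 were under 2-fold. Over all genes analysed, 12.9% were at least 2-fold higher and 5.62% at least 2-fold lower. The 9 genes were picked with these ratios known, so nothing is read from the comparison. Their median log2 ratio was 0.88. It was 2.58 over the 3 serine synthesis genes, 0.88 over the 3 mitochondrial folate genes and −0.58 over Shmt1 and Mthfd1. By probe sets, all 7 of serine synthesis were above 0 and 6 of them at least 2-fold higher. Of the 7 of mitochondrial folate, 4 were above 0 and 3 below, and all 7 of the cytosolic enzymes were below 0. The hybridisation spikes had a median log2 ratio of −0.29. Scaling to them would lift above 0 the probe sets of Mthfd1 at −0.12 and of Shmt2 at −0.21 and −0.22. The Shmt1 probe set at −1.13 would then be under 2-fold lower. A floor at the 75th percentile, a signal of 424, left 6 of the 9 genes and 0 of them 2-fold higher. The 4 higher genes could not pass there, as their day 3 signals, at most 719, were less than 2-fold above that floor. The count was 3 (Psat1, Psph and Mthfd1l) without the probe sets whose suffix marks probes that may match transcripts of other genes, which left 8 genes and not Phgdh. It was 1, Psph, when the suffix _a, which marks transcripts of the same gene, was left out too, and 6 genes remained.

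The enzymes that stand on either side of the mitochondrial membrane can be set against each other within the arrays, where a factor common to an array cancels. On main probe sets the log2 ratio of Shmt2 was 0.41 above that of Shmt1. Over all 16 pairings of their probe sets the difference ran from 0.09 to 3.02 with a median of 1.49, and it was above 0 in all 16. The difference between the log2 ratios of Mthfd1l and Mthfd1 was 2.52, and from 2.09 to 2.57 over 3 pairings. For Mthfd2 and Mthfd1 it was 1.42, and from 0.99 to 2.15 over 6 pairings, 3 of which hold a Mthfd2 value that is a lower bound. The mitochondrial enzyme thus had the higher ratio in every pairing, while the difference between 2 probe sets of 1 gene had an SD of 0.62. The 0.41 of Shmt2 and Shmt1 lies under that SD and the differences of both other pairs lie above it, which is no test. That SD comes from the brightest probe sets of a gene, above the floor on both arrays, and does not cover animals. The genes compared were picked with their ratios known. The pairings share probe sets and arrays and are not independent. Such a difference describes unequal ratios on these arrays, where effects on single probe sets do not cancel. It does not show that either gene stayed the same.

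The neighbouring pathways, in 7 lists with 88 genes, held few genes past 2-fold. Of 78 analysed, 5 were higher by 2-fold or more, 7 were lower by that much and 66 lay between. Their median log2 ratio was −0.16, and 0.10 after spike scaling. These shares, 6.41% and 8.97%, stand beside 12.9% and 5.62% of all genes. Of 11 other folate enzymes and carriers, none was 2-fold higher and 1 was 2-fold lower (median −0.32). That was Aldh1l1, the cytosolic formyltetrahydrofolate dehydrogenase that burns surplus folate carbon, with signals of 14379 at day 3 and 28946 at day 0. It was 2.01-fold lower, and under 2-fold after quantile normalisation, loess and spike scaling. Without shared probe sets but with _a ones kept, 2 genes of this list were 2-fold lower. Tyms, thymidylate synthase, had 91.6 at day 3 and 43.8 at day 0, at least 1.34-fold higher. Aldh1l2 lay under the floor on both arrays. The 3 genes of glycine cleavage were under 2-fold (median −0.43), with Gldc, the decarboxylase, at 1831 at day 3 and 2567 at day 0.

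**Figure D3:**
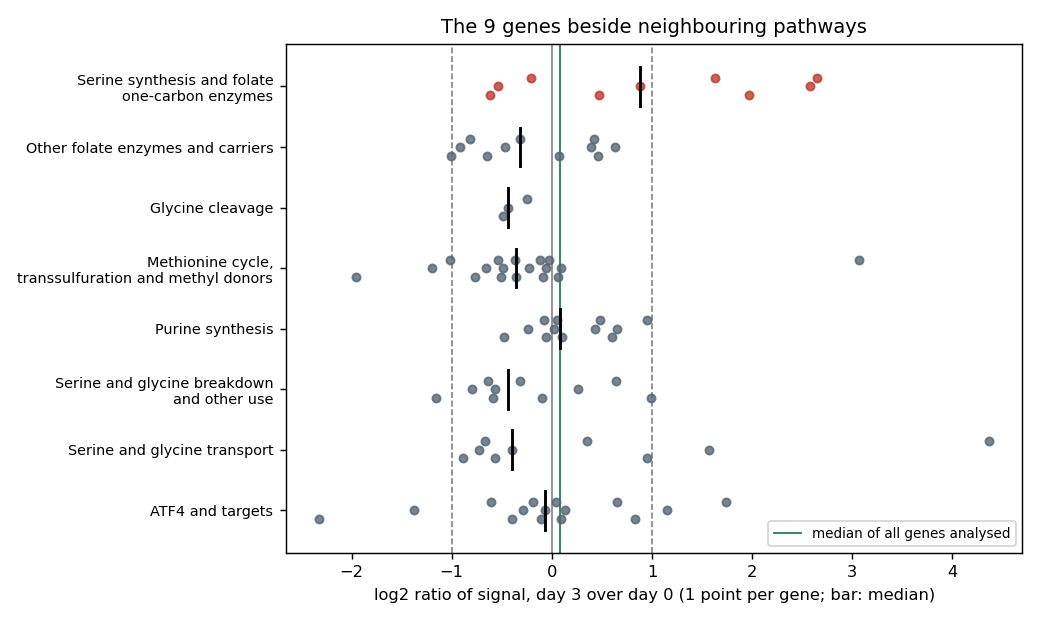
Log2 ratio of signal, day 3 over day 0, of the 9 genes (top row) and of 7 lists of neighbouring genes, 1 point per gene, with a bar at each median and a green line at the median of all genes, 0.08. The 9 genes have a median of 0.88 and the other lists have medians from −0.44 to 0.08.

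Genes of the methionine cycle, transsulfuration and methyl donors differed by 2-fold in 4 of 18 cases, with 3 lower and 1 higher (median −0.36). Mat1a, the liver methionine adenosyltransferase, had a signal of 4819 at day 3 and 18670 at day 0, 3.87-fold lower. Sardh, which returns the methyl carbon of sarcosine to folate, had 4633 at day 3 and 10622 at day 0, 2.29-fold lower. Ahcy, which clears S-adenosylhomocysteine, had 18755 at day 3 and 37884 at day 0, 2.02-fold lower. Sardh was under 2-fold after spike scaling, and Ahcy after that, quantile normalisation and loess. In the other direction stood Nnmt, a methyltransferase that uses S-adenosylmethionine on nicotinamide, at 1475 at day 3 and 176 at day 0, 8.37-fold higher. Cbs, which draws on serine and homocysteine, had 7070.4 at day 3 and 9106 at day 0. Bhmt, the betaine route to methionine, had 31247 at day 3 and 32502 at day 0, and its ratio lay above 0 with 3 scalings (quantile normalisation, loess and spikes). Mat2a was not analysed here.

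Purine synthesis, which takes carbon from folate in 2 of its steps, had 0 of 12 genes past 2-fold in either direction, and its median was 0.08, beside 0.08 for all genes. With loess and with spike scaling, 1 gene of this list was at least 2-fold higher. Of 10 genes that break down or otherwise use serine and glycine, 1 was 2-fold lower and none was 2-fold higher (median −0.44). It was Agxt, the peroxisomal aminotransferase of serine and glyoxylate, with 4513 at day 3 and 10043 at day 0, 2.23-fold lower and under 2-fold after spike scaling. Sds, the serine dehydratase, was not analysed here. Of 9 transporters of serine and glycine, 2 were at least 2-fold higher, none was 2-fold lower and 7 lay between (median −0.40). As the mean over probe sets, 1 transporter was 2-fold higher and 1 was 2-fold lower. Slc1a4, a carrier of alanine, serine and cysteine, had 2689 at day 3 and 130.3 at day 0. It was 20.6-fold higher, and its 3 probe sets had log2 ratios from 3.15 to 4.37. Slc1a5, a carrier of neutral amino acids that also takes up glutamine, had 209 at day 3 and 70.5 at day 0, 2.97-fold higher, while its other probe set had a log2 ratio of −0.45.

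Phgdh, Psat1, Psph, Shmt2 and Mthfd2 are known targets of the transcription factor ATF4 in other cells, so that factor and its other targets are given beside them. Atf4 had signals of 3007 at day 3 and 2930.2 at day 0. Of the 15 genes of this list that were analysed, 2 were higher by 2-fold or more, 2 were lower by that much and 11 lay between. The list's median was −0.07, and 0.13 after spike scaling. Ddit3, a stress transcription factor, had 1098 at day 3 and 329 at day 0, 3.33-fold higher. Slc7a5, a carrier of large neutral amino acids, had 152 at day 3 and 43.5 at day 0, at least 2.22-fold higher. Chac1, which degrades glutathione, had 129 at day 3 and 644 at day 0, 5.00-fold lower. Trib3, a pseudokinase, had 108 at day 3 and 279 at day 0, 2.59-fold lower. Asns, asparagine synthetase, had 119.9 at day 3 and 76.4 at day 0, 1.57-fold higher. This list holds neither the serine and folate enzymes nor the serine and glycine transporters above, and it did not move in a single direction. These are transcript signals, and the part of ATF4 in the ratios of the serine and folate enzymes was not tested.

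In whole tissue, fewer cells of a type and less RNA per cell cannot be told apart. Of the cycling cell markers 7 of 7 were at least 2-fold higher, with a summed signal of 42592 at day 3 and 5774 at day 0. All 7 markers of Kupffer cells and macrophages had log2 ratios above 0, from 0.72 to 3.22, and 4 passed 2-fold (summed signal 19741.5 at day 3 and 7496 at day 0). All 7 markers of stellate cells also lay above 0, from 0.28 to 4.05, and 4 passed 2-fold (19960.1 at day 3 and 9695 at day 0). The 5 cholangiocyte markers ran from 0.90 to 2.71, with 4 past 2-fold (1304 at day 3 and 351 at day 0). The 3 neutrophil markers ran from 0.34 to 3.10, with 2 past 2-fold (1246 at day 3 and 259 at day 0). Of 5 hepatocyte markers and 6 endothelial markers none passed 2-fold, with log2 ratios from −0.53 to −0.11 and from −0.70 to 0.96. Their summed signals were 212143 at day 3 and 269104 at day 0 for hepatocytes, and 5255 at day 3 and 7008 at day 0 for endothelium, and Alb, the hepatocyte product albumin, had 46192 at day 3 and 59840.4 at day 0. The 1 T cell marker analysed had a signal of 100.2 at day 3 and 70.5 at day 0. The 2 B cell markers summed to 127 at day 3 and 204 at day 0. The 2 red cell markers summed to 2882 at day 3 and 8983 at day 0 but went opposite ways. Alas2 had 2783 at day 3 and 8932 at day 0, and Slc4a1 had 99.2 at day 3 and 50.2, under the floor, at day 0. Cd3e, Cd3g, Cd79a, Mpo and Hba-a1 were under the floor on both arrays. The part of cycling or non-parenchymal cells in the ratios of the 9 genes was not tested.

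The arrays also differed in the balance of the 3′ and 5′ ends of the poly-A spikes, 4 transcripts that enter the RNA ahead of labelling and are each measured by 2 pairs of probe sets. Their quotient of the 3′ and 5′ signals at day 3 exceeded that at day 0 in 8 of 8 pairs, by 1.32 to 2.90 times. Among the hybridisation spikes, also 4 transcripts, the quotient was higher at day 3 in 2 of 8 pairs, with a median of 0.97 times that at day 0. The control TrpnX had 0.135 times the day 0 quotient. The median log2 ratio of the poly-A spikes was −1.20 over their 5′ ends and −0.12 over their 3′ ends. The probe sets of Shmt1, with log2 ratios of −0.62, −1.13, −1.71 and −2.03, lie on both sides of that −1.20. The position of each probe set along its transcript was not analysed here, so the part of this balance in the Shmt1 and Mthfd1 ratios was not tested.

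**Figure D4:**
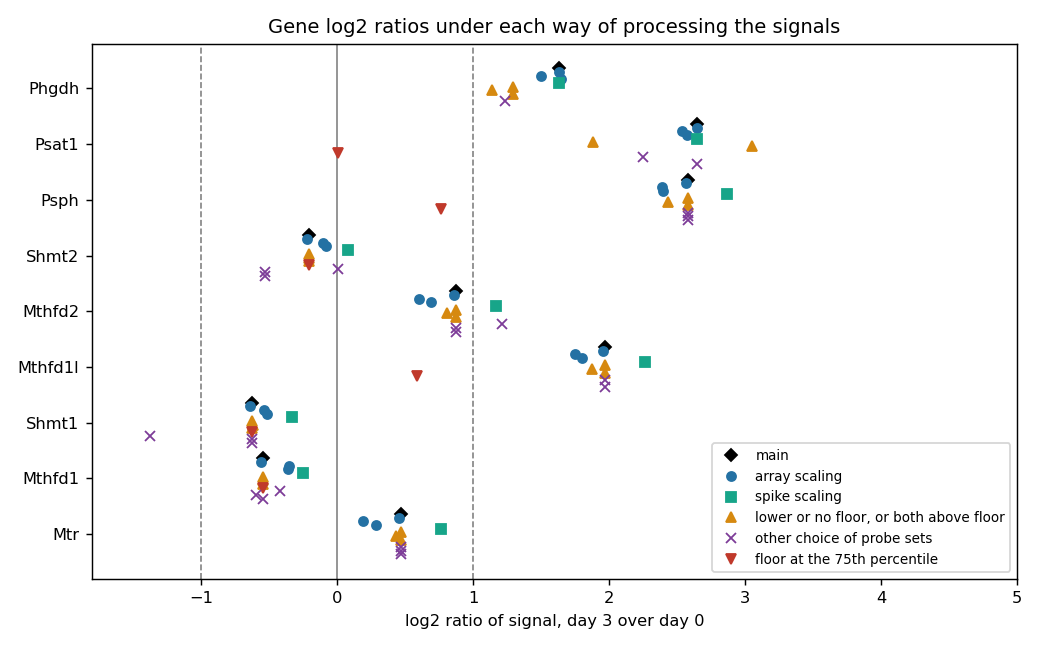
Log2 ratio of each of the 9 genes, day 3 over day 0, under the main processing (diamonds) and its alternatives (other symbols), with dashed lines at 2-fold. Psat1, Psph and Mthfd1l lie under 2-fold only with the floor at the 75th percentile, where Phgdh has no value, and Shmt2 lies on both sides of 0.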

How the data were processed

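Total RNA from whole liver, 5 µg per sample, was labelled with biotin and measured on 1 Affymetrix mouse array per day, per the labels' protocols. The deposited intensity values are probe set signals made with GCOS and MAS5, per the submitters' processing notes. Versions, a scaling target and a genome build were not given in the sources used here. Without the top and bottom 2% of probe sets both arrays had a mean of 500.0, as a scaling of each whole array would give.

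Gene symbols came from the array annotation supplied with the data, and 34741 of the 34945 probe sets with 1 symbol matched RefSeq by Entrez ID, with 0 symbols changed. From these values, signals were floored at the higher array median and log2 was taken. The main probe set of a gene had the highest mean of the floored log2 signals. The text names all 9 members and, of each neighbouring list, every gene past 2-fold, up to 4 in each direction, with 14 genes chosen whatever their values, some of which are not reported here. The members and the lists were chosen with earlier results of these data known.

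The alternatives changed the array scaling (median centring, loess with fraction 0.3, quantile normalisation, spikes), the floor (25th or 75th percentile, none with 16 added, both arrays above it), the probe sets (their mean, or none with a suffix for shared probes, with _a counted as shared or not) or the threshold (1.5-fold). The main processing and the alternatives of array scaling were run on simulated arrays with known ratios in genes well above the floor. The other floors, choices of probe sets and the other threshold were not checked in this way. Python 3.11.15 was used with numpy 2.4.6, pandas 2.3.3 and statsmodels 0.14.6.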

Additional observations from a re-analysis of the deposited data

How the results depend on the processing

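Of 91 recomputed log2 ratios of single genes among the 9, 85 moved by less than the SD of 0.44 between probe sets, 6 moved by more and 0 changed sign after passing 2-fold. The 6 were Psat1 at 1.88 with the floor at the 25th percentile and 0.01 at the 75th, Psph at 0.76 and Mthfd1l at 0.59 with the floor at the 75th, Phgdh at 1.14 with no floor, and Shmt1 at −1.37 as the mean over probe sets. The main probe set was chosen anew under each alternative. The 1.88 of Psat1 and the 1.14 of Phgdh come from other probe sets (1454607_s_at and 1426658_x_at) than those reported. Without a floor, the reported Psat1 probe set (1451064_a_at) had a log2 ratio of 3.52. Part of the 85 could not move. Psph, Mthfd1l and Mtr had 1 analysed probe set each, which other choices of probe sets could only keep or drop. Phgdh and Psat1 stayed at 1.63 and 2.65 under median centring and spike scaling, since the floor moved with the day 3 array. The count of 85 is therefore no measure of stability. Of the 9 genes, 0 were at least 2-fold higher under the 75th percentile floor, 1 without shared probe sets when _a ones are counted as shared, and from 3 to 5 under 9 other alternatives. One of these, with _a probe sets kept, was chosen after seeing the data and gave 3. At a threshold of 1.5-fold 5 genes were higher and 1 lower, and as the mean over probe sets 1 was 2-fold lower. The median log2 ratio was −0.10 under the 75th percentile floor and −0.029 without shared and _a probe sets. Both settings leave 6 of the 9 genes. For the neighbouring lists together, spike scaling gave 8 higher and 3 lower genes, a threshold of 1.5-fold 14 and 19, and the 75th percentile floor 3 higher genes. Among all genes, 2401 were higher and 380 lower with spike scaling, 574 and 406 under the 75th percentile floor, 2412 and 1834 under the 25th percentile floor, 2323 and 1770 without a floor and 3028 and 1797 at 1.5-fold, against 1625 and 710 as reported. Low signals are limited by the background: Phgdh, Psat1 and Mthfd2 each had a day 0 signal under the floor on at least 1 probe set. No paired analysis was possible because there was 1 array per day.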

Other observations

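Probe sets of single genes in the neighbouring lists differed in direction, and these genes were picked after their values were seen. The 4 probe sets of Gart, a trifunctional enzyme of purine synthesis that takes formyl groups from folate, had log2 ratios from −1.46 to 0.68, with signals of 1512 at day 3 and 1456 at day 0 on the main one. The 6 probe sets of Srr, serine racemase, ran from −1.52 to 0.38, with 2064 at day 3 and 3582 at day 0 on the main one. The probe sets of Ahcyl2 ran from −0.83 to 0.65. Sptlc2, a subunit of the enzyme that joins serine to palmitoyl-CoA in sphingolipid synthesis, lay just under 2-fold, with 1268 at day 3 and 638 at day 0, and its other probe set had a log2 ratio of 1.43.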
